A study of Drosophila melanogaster with 3 samples.

Results

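The 4410 regions described here are weak promoter entries in a genome-wide map of where the Drosophila melanogaster protein rgr (regular) sits on chromatin. They were chosen by their signal and their place: each is an entry of the authors' pooled peak list that did not reach the authors' thresholded list, called optimal below, and has its summit within 500 bp of an annotated transcript start of a protein-coding gene. The pooled list holds 30000 entries and is titled as peaks together with background, so an entry is a place where signal was reported and not by itself a binding site. Of the 21449 entries outside the optimal list, these 4410 lay at protein-coding starts and 16369 lay over 500 bp from any start. The stronger counterpart used for comparison is the 3651 optimal promoter entries, defined by the same distance.

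The material was whole wandering larvae of the third instar, males and females pooled, of a transgenic line that carries rgr with GFP fused to its carboxyl end. Sonicated chromatin was precipitated with an antibody against GFP, and the labels number 3 biological replicates in 1 group. No wild-type or untagged group was analysed here, and a whole larva mixes all of its tissues, so a weak entry in every cell and a strong one in few cells cannot be told apart. Without read counts in the lists, sequencing depth is unknown.

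In ChIP-seq, fragments of chromatin bound to a protein are pulled down, sequenced and piled up along the genome, and the summit of a peak marks where fragments overlap most. A promoter is the stretch around a transcript start where RNA polymerase II assembles. In flies, promoters of broadly used genes often hold short words such as the DRE, bound by DREF, the site of M1BP (motif 1 binding protein, known from Ohler's promoter motifs) or Ohler motifs 6 and 7. Promoters of regulated genes more often hold a TATA box, an Initiator at the start itself, or GAGA repeats bound by the GAGA factor. With no precipitation from untagged larvae analysed here, signal that depends on rgr and signal that promoters give in any precipitation cannot be told apart.

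The sequences below show what a weak promoter entry looks like at the base level for 5 words that the later comparisons turn on. Each is 101 bases of dm6 centred on the summit, plus strand, 5′ to 3′, taken from the RefSeq copy of the assembly, and each overlaps no annotated exon. Capitals mark the word: the DRE (TATCGATA) at Rbcn-3A, which encodes a rabconnectin that helps assemble the vacuolar proton pump, and at Ptip, which encodes a partner of histone methyltransferases; the M1BP site (GGTCACAC, here also read on the opposite strand as GTGTGACC) at CG6654 and at Bicra, a subunit gene of a chromatin remodelling complex; the Initiator (TCAGT then C or T, here on the opposite strand) at chrb, an inhibitor of TOR signalling; a CA repeat (CACACACA, or TGTGTGTG on the opposite strand) at Rab18, a small GTPase of membrane traffic, and at Atg13, an autophagy initiation factor; and the E2F word (TTT, 2 letters that are each C or G, then CGC) at mtd.
Rbcn-3A, DRE, chrX:6255497-6255597: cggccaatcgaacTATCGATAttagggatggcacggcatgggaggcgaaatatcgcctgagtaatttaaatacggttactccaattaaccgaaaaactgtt
Ptip, DRE, chr3L:14029142-14029242: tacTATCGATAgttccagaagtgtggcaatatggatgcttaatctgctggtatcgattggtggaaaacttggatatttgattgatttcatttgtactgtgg
CG6654, M1BP site, chr3R:15213662-15213762: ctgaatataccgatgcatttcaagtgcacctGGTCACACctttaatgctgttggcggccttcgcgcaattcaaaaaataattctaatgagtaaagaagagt
Bicra, M1BP site, chr3R:29088208-29088308: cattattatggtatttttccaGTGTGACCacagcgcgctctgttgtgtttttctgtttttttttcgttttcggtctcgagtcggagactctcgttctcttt
chrb, Initiator, chr3L:11493457-11493557: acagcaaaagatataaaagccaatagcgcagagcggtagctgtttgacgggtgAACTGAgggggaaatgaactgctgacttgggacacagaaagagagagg
Rab18, CA repeat, chrX:5671832-5671932: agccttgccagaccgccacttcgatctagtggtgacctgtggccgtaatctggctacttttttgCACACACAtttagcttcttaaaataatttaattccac
Atg13, CA repeat, chr3R:8349673-8349773: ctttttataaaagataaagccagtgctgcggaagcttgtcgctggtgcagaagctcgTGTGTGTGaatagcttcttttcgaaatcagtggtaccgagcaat
mtd, E2F, chr3R:5297552-5297652: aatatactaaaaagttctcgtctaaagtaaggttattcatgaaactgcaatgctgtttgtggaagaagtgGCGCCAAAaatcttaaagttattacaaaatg

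The 8 windows differ in where the word sits and in how steadily the entry recurred. In the Rbcn-3A window the DRE begins 37 bp before the summit, the summit lies 60 bp upstream of the start, and the entry ranked 7722, 11587 and 9906 in the lists of replicates 1, 2 and 3, where rank 1 is the highest signal of 30000. The Ptip entry, 71 bp upstream of its start, ranked 7626, 9538 and 19499. The Bicra entry, 55 bp upstream, ranked 7748 and 5775 in replicates 2 and 3 and had no summit within 100 bp in replicate 1. The CG6654 entry, 54 bp upstream, ranked 8256 and 9055 in replicates 1 and 2 and was without a match in replicate 3. The words in the chrb window include a TATA box, an Initiator and a GAGA repeat. Its summit lies 364 bp upstream of the nearest annotated start and it ranked 4672, 14268 and 9217. The Rab18 entry at 70 bp ranked 11495, 7577 and 8675, the Atg13 entry at 92 bp 13970, 10423 and 5980, and the mtd entry at 86 bp 9476, 9163 and 11283.

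The signal that chose the weak promoter entries is a description here and carries no test. Their pooled signal, the authors' value for the strength of an entry within its list, ran from 28.8 to 122.5 with a median of 60.8. The optimal promoter entries had a median of 243. Their ranks in the pooled list ran from 8553 to 29991 with a median of 16358. The authors' −log10 q-value, which is higher for entries less compatible with background, had a median of 1.21 and a maximum of 3.79, and 2086 entries (47.3%) had a q-value below 0.05. Of the weak entries away from starts 30.2% did. The other weak promoter entries were not separated from background at that level by the authors' own measure.

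The threshold fell between entries of nearly equal signal. Just below it were shot, which encodes a spectraplakin linking actin and microtubules (122.542), the uncharacterised CG33969 (122.536) and CG30114 (122.495). Just inside it were psq (122.601), inc (122.626) and CG12107 (122.63), of which inc encodes an adaptor for a ubiquitin ligase that affects sleep. The entry at shot ranked 8281, 9352 and 9962 in the 3 replicates, while that at inc ranked 7059, 9772 and 22135. Replicate ranks therefore overlapped across the threshold for these 6 genes. At the other end, the lowest entries lay at Nmdmc (28.8117), TotZ (28.8203) and Cyp6v1 (28.8301), and none of these 3 was matched in more than 1 replicate.

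Among genes with weak entries only, the 12 with the highest signal and a match in all 3 replicates spanned housekeeping and regulatory functions. The entry at Tl, the gene of the Toll receptor, lay 16 bp downstream of a start and ranked 19205, 10350 and 7211 in replicates 1, 2 and 3. At bys, which encodes bystin, a factor of small ribosomal subunit assembly, the entry lay 39 bp upstream and ranked 4602, 11670 and 5841. At dar1, a Krüppel-like zinc finger gene of dendrite growth, it ranked 10158, 8470 and 11110, and at icln, whose product helps assemble splicing particles, 7024, 11328 and 9997. The range over replicates was thus narrow at dar1 and wide at Tl. Others were Prosalpha5, a 20S proteasome subunit gene (9318, 8185 and 18758), Sec63, of protein import into the endoplasmic reticulum (11370, 5651 and 21580), nudC, a dynein regulator gene (10473, 11171 and 6458), bip1 (10594, 8199 and 9222), Tmem214, CG4004, CG8679 and CG13365. Their pooled signals, which chose them, lay between 121.1 at icln and 122.4 at CG4004.

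The weak promoter entries differed in how often they recurred in the replicate lists. The pooled and the optimal list that define them were derived from the same 3 replicates, so these shares are a description. A summit was found within 100 bp for 62.8% of the entries in replicate 1, 72.6% in replicate 2 and 54.5% in replicate 3, a mean of 63.3% ± 9.06 (SD, n = 3). In all 3 replicates 1189 entries (27.0%, 95% exact binomial interval 25.7 to 28.3) were found, 1780 (40.4%) in 2, 1249 (28.3%) in 1 and 192 (4.35%) in none. For the optimal promoter entries 88.4% were found in all 3, as a description, since the replicate lists helped to make that list. The count for the weak entries depended strongly on the matching distance, with 14.4% at 50 bp and 45.3% at 200 bp.

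Very few weak promoter entries were strong in every replicate. This follows in part from the rule, since their ranks in the pooled list, made from the same replicates, began at 8553. Within the 8551 highest entries of each replicate list, the length of the optimal list, there were 304, 266 and 345 of them. In 2 replicates 82 were there. In all 3 there were 5 (0.113%), beside 66.3% of the optimal promoter entries and 0.0183% of the weak entries away from starts. The 5 were at NK7.1, a homeobox gene (ranks 7471, 8477 and 8544), atos (7399, 8509 and 6743), CG13949 (6974, 7164 and 6563), nw (3600, 3800 and 5276) and grp, the fly Chk1 checkpoint kinase gene (5595, 7190 and 3279). These genes were picked out after their values were seen. The entries at CG13949, nw and grp had an optimal summit 199, 211 and 199 bp away. A short distance to a stronger peak was common: no entry came closer than 199 bp, 544 (12.3%) lay at 199 to 219 bp, 707 (16.0%) within 500 bp, and the median distance was 2280.5 bp. The 5 entries with the largest ratio of worst to best replicate rank, at Gli (2868, 22260 and 8481), P5CDh1 (5053, 12084 and 1697), CG1572 (8154, 3549 and 24005), CG11927 (27558, 19244 and 4118) and CCT5 (9503, 16953 and 2899), all lay 202 to 216 bp from an optimal summit. Whether the neighbouring peak set those ranks was not tested.

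Compared with weak entries away from starts, recurrence went in opposite directions with and without regard to signal. Taken as a whole, 27.0% of the weak promoter entries and 21.7% of the 16369 weak entries away from starts were found in all 3 replicates, an odds ratio of 1.33 (two-sided Fisher's exact test, p = 3.74e-13). The promoter entries also had the higher signal, with medians of 60.8 and 47.7. When all these entries were divided into quintiles of pooled signal, the shares were 0.899% and 0.470% in the lowest quintile, 3.92% and 2.86% in the next, and 12.9% and 13.3% in the middle one. None of these 3 pairs passed the test. In the upper quintiles the promoter entries recurred less, with 29.95% against 36.7% (Fisher's exact test with Benjamini-Hochberg adjustment over the 5 quintiles, p = 0.000213) and 55.4% against 65.7% (adjusted p = 1.18e-09). The deficit at promoters remained without entries near an optimal summit (Fisher's exact test), at 32.1% against 37.9% (adjusted p = 0.00569) and 56.9% against 68.0% (adjusted p = 7.08e-10). In the highest quintile it had the same direction in each replicate alone, with 83.2% against 87.8%, 90.0% against 92.9% and 73.5% against 79.3% found. All these shares use the matching distance of 100 bp, and no other distance was tried within quintiles. Entries are not independent replicates, so these p-values measure counting error over entries and not variation between larvae. The pooled signal comes from the same 3 replicates as the recurrence, so signal and recurrence are linked in both sets by construction. These tests therefore compare the sets only and cannot show recurrence in independent larvae.

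**Figure D1:**
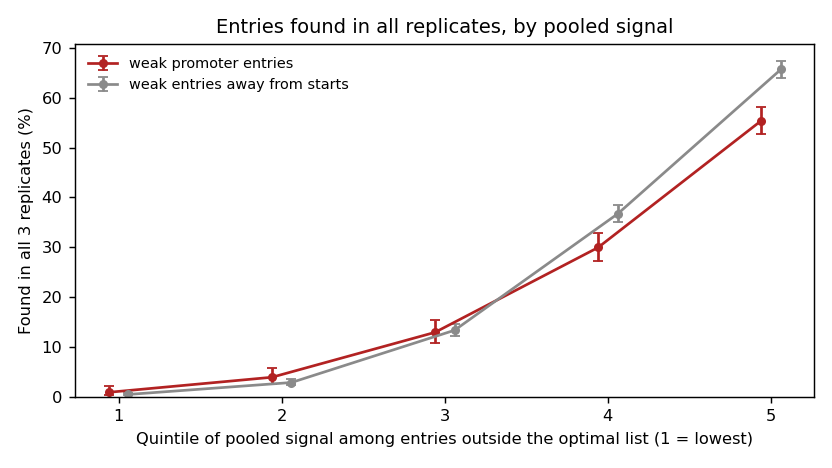
Share of entries with a summit within 100 bp in all 3 replicate lists (vertical axis, %) by quintile of pooled signal (horizontal axis), for weak promoter entries and weak entries away from starts. Bars are 95% exact binomial intervals. In the highest quintile the shares were 55.4% and 65.7%.

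Inside the window of 500 bp, the weak promoter entries were spread more evenly around the start than the optimal ones. Their median distance from the start was 127 bp against 96 bp, and 58.3% of summits lay upstream against 74.0% (Fisher's exact test, adjusted p = 2.24e-49). The bin with most entries in both sets was the 50 bp just upstream, with 14.1% and 18.4%. Between 100 and 150 bp upstream the shares were 6.39% and 12.8%, and between 100 and 150 bp downstream 4.24% and 2.16%. Within 100 bp of a start lay 44.2% of the weak and 51.8% of the optimal summits (Fisher's exact test, p = 9.58e-12), but this difference was not seen for entries that recurred. With the weak entries limited to those found in both remaining replicates, it was -1.06, 0.0319 and -0.741 percentage points without replicates 1, 2 and 3, and did not pass the test. Closeness also moved with signal among the weak entries, from 31.1% within 100 bp in their lowest quintile to 56.0% in their highest.

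**Figure D2:**
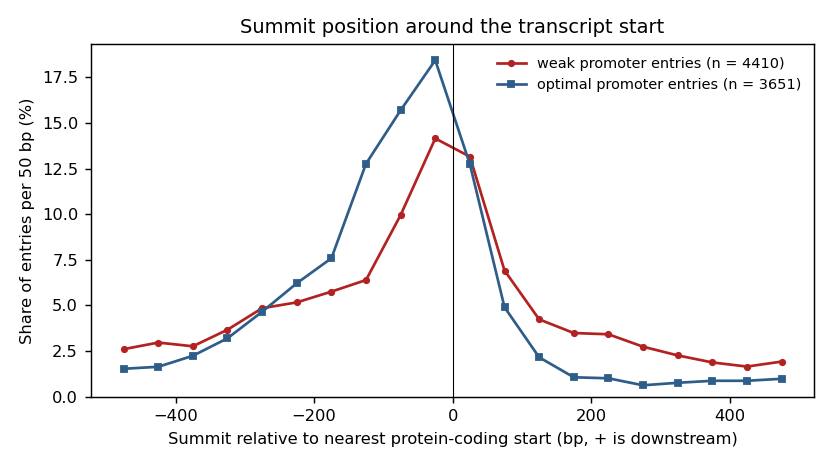
Position of summits relative to the nearest protein-coding transcript start (horizontal axis, bp in bins of 50, positive downstream) as a share of entries (vertical axis, %). Weak promoter entries reached 14.1% and optimal promoter entries 18.4% just upstream of the start, and the weak entries had the larger shares downstream of 50 bp.

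The annotation under the summits followed the same shift into the gene. Coding exon held 257 weak summits (5.83%) and 32 optimal ones (0.876%), an odds ratio of 7.0 (Fisher's exact test adjusted over 5 annotations, p = 1.45e-36). By the same exact test the 5′ UTR held 32.2% against 26.0% (adjusted p = 1.36e-09) and introns 26.7% against 24.0% (adjusted p = 0.0075). Sequence between genes held 32.1% against 45.8% (exact test, adjusted p = 1.07e-35), whereas 3′ UTRs held 1.29% of both. The coding share was highest among the weakest entries, 11.2% in their lowest quintile and 2.38% in their highest. Examples were the entries in coding exons at Jon65Aiv and Jon65Aiii, trypsin-like gut protease genes, 47 and 57 bp downstream of their starts, and at Fbp1, a fat body receptor gene for storage protein, 111 bp downstream.

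Weak promoter entries were less often at divergent promoters. Starts on both strands lay within 500 bp of 563 weak summits (12.8%) and 1093 optimal ones (29.9%), an odds ratio of 0.343 (Fisher's exact test, adjusted p = 4.57e-80). Without the entries near an optimal summit the weak share was 9.94%. Within the weak entries it ran from 7.48% in the lowest quintile of signal to 17.2% in the highest, which was still below the optimal share. These tests of strand, side, annotation and chromosome were chosen after the data were seen.

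**Figure D3:**
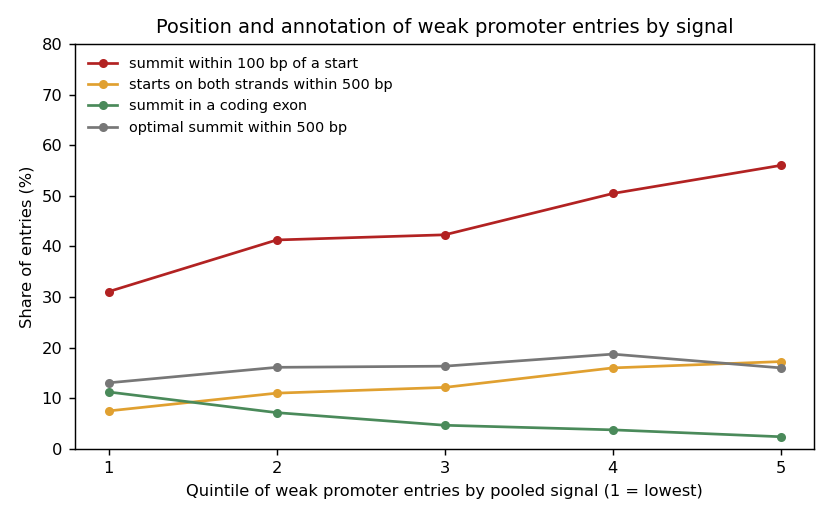
Share of weak promoter entries (vertical axis, %) with each property, by quintile of their pooled signal (horizontal axis, 882 entries a quintile). Summits within 100 bp of a start rose from 31.1% to 56.0% and summits in coding exons fell from 11.2% to 2.38%, while the share near an optimal summit stayed between 13.04% and 18.7%.

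The X chromosome held more weak promoter entries than its share of optimal ones. On X lay 21.2% of the weak and 16.9% of the optimal promoter entries (Fisher's exact test, adjusted p = 1.03e-06). Of the weak entries away from starts 18.4% lay on X, and of the whole pooled list 18.5%. By gene, 22.2% of X-linked protein-coding genes had weak entries only, against 14.6% on 2L, 16.2% on 2R, 16.7% on 3L, 15.8% on 3R and 13.8% on the small chromosome 4. An optimal entry was present at 28.9% of X-linked genes, beside 29.0% of all genes. The share of all entries on X differed between the replicate lists, with 19.6%, 18.3% and 15.8% in replicates 1, 2 and 3. X-linked weak promoter entries were matched at 66.3%, 71.9% and 51.1%, against 62.8%, 72.6% and 54.5% for all of them. The larvae were males and females pooled. The parts of sex and of library makeup in the X share were not tested.

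Of the 13968 protein-coding genes, 2347 (16.8%) had weak entries only at their starts, 4048 (29.0%) had an optimal entry and 7573 (54.2%) had neither. Of the genes with an optimal entry, 1329 also had a weak one. rgr itself had an optimal entry and no weak one. Of the genes with weak entries only, the entry with the highest signal was matched in all 3 replicates for 780 (33.2%) and in none for 74 (3.15%). The most weak entries were 10 at br, the zinc finger gene of the ecdysone response, 9 at Svil, which encodes an actin-binding supervillin, and 8 at CG12963. The genes br and Svil also had an optimal entry. Among all genes with any promoter entry, 36.7% had weak ones only, and that share and the 16.8% are the bases for reading the gene lists below.

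Gene lists differed both in how many genes had any entry and in how those entries fell to the sides of the threshold. Of the cytoplasmic ribosomal proteins, 76 of 91 genes had an optimal entry and 3 had weak entries only, or 3.797% of the genes with any entry. The 3 were RpL6, with ranks of 22007, 9824 and 14042 in the replicates, RpL40, matched in replicates 2 and 3 (13052 and 10870), and RpS28-like, which was matched in none. Mitochondrial ribosomal proteins (9 of 73 weak only, 35 optimal), subunits of the respiratory chain and ATP synthase (10 of 87, 32 optimal), aminoacyl-tRNA synthetases (2 of 33, 16 optimal) and autophagy genes (2 of 20, 13 optimal) also had weak shares below 36.7% of their genes with an entry. Proteasome genes, at 9 of 48 weak only and 15 optimal, stood at 37.5%. Core histones had no gene with weak entries only and 4 of 115 with an optimal one, but these genes are near-identical repeated copies, for which the handling of multiply mapping reads is not given in the sources used here.

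Cytochrome P450, digestive enzyme and antimicrobial peptide genes had more members with weak entries only than with an optimal one, though most had no entry. Of all protein-coding genes 16.8% had weak entries only and 29.0% an optimal one. Of 85 cytochrome P450 genes, which oxidise hormones, toxins and plant compounds, 26 (30.6%) had weak entries only and 12 (14.1%) an optimal one. The highest were Cyp12a4, 60 bp upstream and matched in replicates 1 and 2 (ranks 9451 and 11456), Cyp12a5 (15675, 10245 and 12961) and Cyp4d20 (26072, 8912 and 9377). Glutathione S-transferases had 9 of 35 weak only and 9 optimal, with 1 summit shared by the neighbours GstE1 and GstE10. Digestive enzyme genes had 11 of 43 weak only (25.6%) and 2 optimal (4.65%). Among them Jon65Aiv ranked 11343, 16214 and 9358 and Mal-A1, a maltase gene, 12727, 19029 and 12196. The antimicrobial peptide and Turandot genes had 7 of 39 weak only (17.9%), near the share of all genes, and 1 optimal (2.56%), below it. Their 3 highest weak-only genes, AttD, BomS3 and TotC, were each matched in 1 replicate.

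Homeotic, patterning and tracheal genes had weak-only shares of 50%, 28.1% and 46.7%, beside 16.8% of all genes, and 100%, 52.9% and 58.3% of their genes with an entry, beside 36.7%. Of the 8 homeotic genes, which give body segments their identity, 4 had weak entries only and none an optimal one. The entry at lab ranked 17567, 16774 and 28712, that at Abd-B 18978, 26207 and 12603, that at abd-A was matched in replicate 1 (10017) and that at Antp, named after its values were seen, in replicates 1 and 2 (27972 and 17341). All these ranks were past 8551. Patterning transcription factors had 18 of 64 weak only and 16 optimal, among them nub, a POU factor gene of wing growth (7537, 13828 and 11730), and bi, a T-box gene (11485 and 8693 in replicates 1 and 2). Tracheal genes had 7 of 15 weak only and 5 optimal, with esg, a Snail-type factor gene, at 9532, 10049 and 10019, and mmy, which makes the precursor of chitin, at 9301, 16390 and 4381. The mmy entry lay 252 bp from an optimal summit.

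Weak-only shares of the signalling lists ran from 18.8% for the Hippo pathway to 29.5% for Wnt, Hedgehog and Dpp, with programmed cell death genes at 35%, beside 16.8% of all genes. Of genes with an entry, most of these lists were near the 36.7% of all genes. The shares were 40.6% for Wnt, Hedgehog and Dpp, 40% for Notch and 39.1% for receptor tyrosine kinase genes. They were 36% for ecdysone response, 35.7% for insulin and TOR, 21.4% for Hippo and 50% for cell death genes. The Wnt, Hedgehog and Dpp genes had 13 of 44 weak only and 19 optimal, with Med, the Smad4 gene, at 9043, 8005 and 9218 and brk, the repressor of Dpp targets, at 5441, 16678 and 11246. Notch pathway genes had 8 of 28 and 12 optimal, with the protease gene kuz at 7350 and 8278 in replicates 2 and 3 and the ligand gene Ser matched in replicate 1 (7223). Receptor tyrosine kinase genes had 9 of 34 and 14 optimal, and the Hippo pathway 3 of 16 and 11 optimal, the 3 being fj, wts and ft. Insulin and TOR genes had 5 of 25 and 9 optimal, with Pi3K92E, a catalytic subunit of the phosphoinositide kinase, at 7136, 9674 and 8190 and S6k at 11493, 13908 and 8175. Ecdysone response genes had 9 of 35 and 16 optimal, with Kr-h1, a zinc finger factor of juvenile hormone signalling, at 10491, 7264 and 16347. Programmed cell death genes had 7 of 20 and 7 optimal, among them the caspase genes Dredd (7308 and 9650 in replicates 2 and 3) and Dcp-1 (6448, 15223 and 15000).

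Chromatin, cell cycle and stress genes had mostly optimal entries. Polycomb and trithorax genes, which hold genes silent or active through development, had 5 of 32 weak only and 16 optimal, with Psc at 9858, 13102 and 14920 and Pcl at 10957, 9476 and 13431. Cell cycle and replication genes had 5 of 39 and 21 optimal, with Rbf, the retinoblastoma gene, at 8618, 10404 and 10635 and the cyclin inhibitor gene dap at 13760, 7026 and 18888. Insulator and promoter factor genes had 4 of 19 and 13 optimal, with Ibf1 and Ibf2 sharing 1 summit. Rab GTPases had 6 of 31 and 16 optimal, JAK/STAT and JNK genes 5 of 24 and 14, heat shock and chaperone genes 3 of 31 and 14, and circadian clock genes 1 of 16, which was cwo, and 7. In all 7 of these lists weak entries made up less than 36.7% of the genes with an entry.

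Genes of lists named for tissues or cell types were present on both sides of the threshold. Fat body and storage genes had 7 of 18 weak only and 10 optimal, with Fbp1 at 12556, 11930 and 14448 and the larval serum protein gene Lsp1beta at 14127, 16906 and 12963. Muscle contractile genes had 9 of 32 and 8 optimal, with the alpha-actinin gene Actn at 7440, 13414 and 6942. Neuronal genes had 12 of 54 and 10 optimal, with the neuroligin gene Nlg2 at 14835, 10262 and 6773. Salivary glue genes had 4 of 22 and 3 optimal, with Sgs3 at 13520, 9946 and 9618, and hemocyte genes 3 of 19 and 4 optimal, with srp, a GATA factor gene, at 15375, 18054 and 27012. Cuticle proteins (7 of 122 weak only, 4 optimal), chemosensory receptors and odorant-binding proteins (13 of 230, 5 optimal) and testis-specific genes (2 of 30, 3 optimal) rarely had any entry. Glial genes had 3 of 19 and 6 optimal, and of 20 eggshell and yolk genes Yp3 alone had an entry, a weak one. Over the 38 lists, 22 had a weak-only share above 16.8%, with a median of 18.8%, and 21 had a weak share of their genes with an entry above 36.7%. No test was made on lists.

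**Figure D4:**
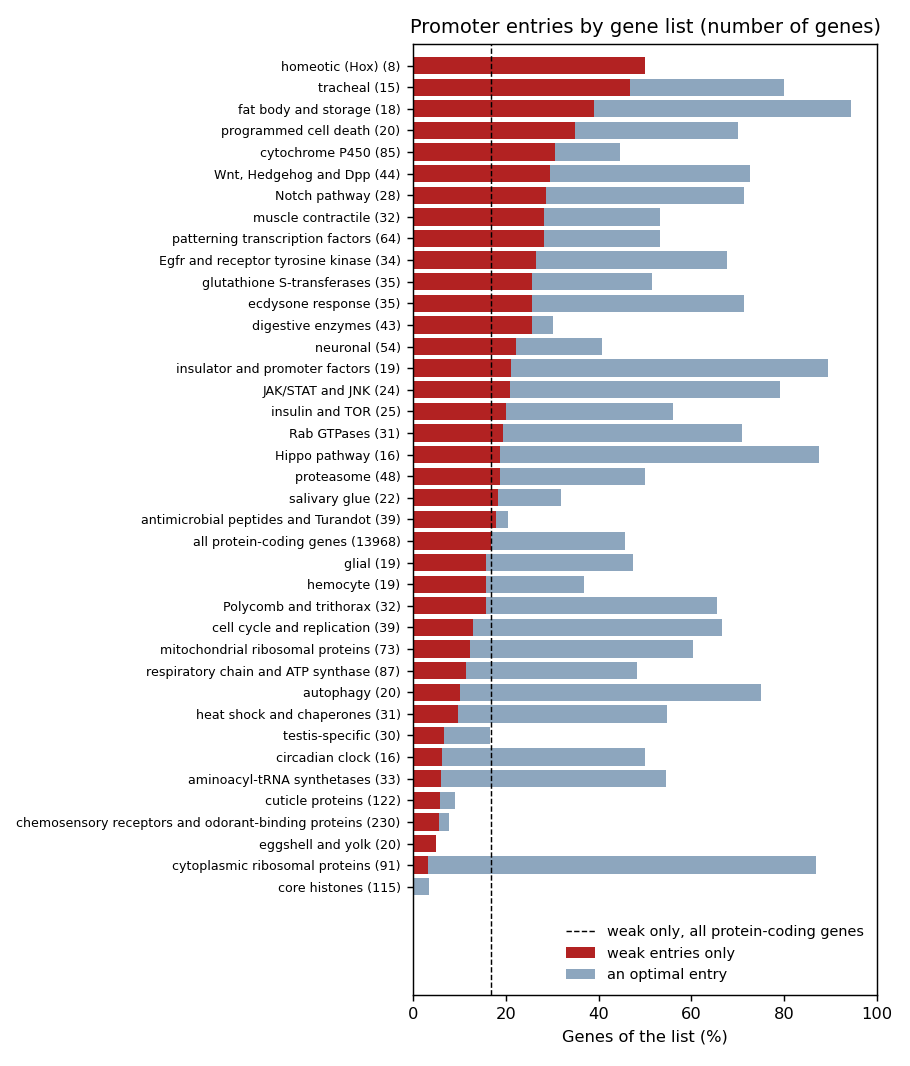
Share of genes in each list (horizontal axis, %) with weak promoter entries only and with an optimal entry, with the number of genes in parentheses. The dashed line is 16.8%, the weak-only share of all protein-coding genes. Cytoplasmic ribosomal proteins had 3.30% weak only and 83.5% optimal, and cytochrome P450 genes 30.6% and 14.1%.

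The DRE, the M1BP site and the Initiator were more frequent at weak summits than in distant flanks. For summits over 50 bp from the start, no such excess passed the test against control windows as near to it or nearer. Windows of 101 bp at the summit were first compared with windows of the same width centred 300 bp away at the same entries, and 11 of 30 words were called (36.7%, two-sided exact McNemar test with Benjamini-Hochberg adjustment). The DRE stood in 2.40% of summit windows and 1.04% of flanks, the M1BP site in 2.49% and 0.658%, Ohler motif 7 in 2.65% and 1.22% and the Initiator in 15.1% and 10.2%. The GAGA factor word (GAGAGAG), the CA repeat, Ohler motif 6, the E2F word, the Myb word (AACGGTC) and the myogenic-type E-box (CAGCTG) were also higher at summits and the homeodomain word (TAATTA) was lower, while no difference passed the test for the TATA box (4.63% and 4.54%) or the DPE-like word (2.61% and 2.06%). The rule places summits near a start, however, so a flank at that distance is mostly farther from the start than the summit is, and this comparison alone cannot tell a word at the summit from a word at the start.

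Control windows set by the start, added after the data were seen, gave a different result for summits away from the start. Summits within 50 bp of it were left out, and with them most windows with the DRE or the M1BP site. Over 50 bp away lay 31 of the 106 weak summit windows with the DRE and 29 of the 110 with the M1BP site. An excess at the nearer summits could not be tested in this way. For the 3204 entries with a summit over 50 bp from the start, the control was mirrored across the start, at the same distance on the other side. Against it the DRE was in 0.968% of summit and 1.06% of control windows, the M1BP site in 0.905% and 0.655%, Ohler motif 7 in 1.498% and 1.15% and the Initiator in 10.1% and 9.77%, and none of these 4 passed the exact McNemar test. For the 1997 entries at least 150 bp away, a control 300 bp from the summit towards the start held more of the DRE (1.95% against 0.351% at the summit, exact test, adjusted p = 2.75e-05), the M1BP site (1.35% against 0.351%, adjusted p = 0.00616) and the Initiator (15.1% against 9.66%, adjusted p = 1.09e-05). Against the mirrored control the AP-1 word was higher at the summit (1.40% against 0.624%, exact test, adjusted p = 0.0394). Against the control towards the start the forkhead word (6.16% against 4.11%, exact test, adjusted p = 0.0232) and the homeodomain word (6.06% against 4.16%, exact test, adjusted p = 0.0359) were higher. The DPE-like word was lower there (1.60% against 2.90%, exact test, adjusted p = 0.0359). This control lies nearer the start than the summit does, so it cannot tell a word frequent at the summit from one scarce at the start. In the distant flank comparison the homeodomain word was lower at the summit (4.83% against 6.10%). No difference passed the test there for the forkhead word (5.65% against 5.49%). The CA repeat was higher at the summit against both controls, 4.93% against 3.15% (exact test, adjusted p = 0.00685) and 5.26% against 2.95% (exact test, adjusted p = 0.00261). Against the flank its shares were 4.35% and 3.13% (exact test, adjusted p = 0.0106), and that call was lost in 5 of the 7 alternatives run. Among these were all with a replicate left out, where the weak entries were limited to those found in both others.

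The shares of the DRE and the M1BP site also moved with signal, as did closeness to the start. The DRE was in 0.680% of the lowest quintile of weak promoter entries and 3.74% of the highest, the M1BP site in 1.13% and 3.97%, and the share of summits within 100 bp of a start was 31.1% and 56.0%. The CA repeat was in 4.65% of the lowest and 3.97% of the highest quintile. In replicates 1, 2 and 3 the CA repeat was in 3.68%, 3.84% and 4.70% of the summit windows of matched entries and in 3.11%, 2.93% and 3.04% of flanks. These ranges did not overlap, although the replicates share most of the same regions.

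Against the summits of optimal promoter entries, 11 of 30 words again differed (36.7%, two-sided Fisher's exact test with Benjamini-Hochberg adjustment). Ohler motif 7 was less frequent at the weak entries, 2.65% against 5.29% (odds ratio 0.488, exact test, adjusted p = 1.59e-08). The Initiator was more frequent, 15.1% against 10.9% (1.45, exact test, adjusted p = 3.18e-07), and so was the CA repeat, 4.35% against 1.73% (2.59, exact test, adjusted p = 1.94e-10). These 3 kept their calls in all 7 alternatives. They also kept them when both sets were limited to summits within 100 bp upstream of a start (1063 weak and 1246 optimal entries), an alternative added after the data were seen, with 5.08% against 10.03% for Ohler motif 7, 19.6% against 10.5% for the Initiator and 4.23% against 1.69% for the CA repeat. The homeodomain word, 4.83% against 7.26% (0.648, exact test, adjusted p = 3.83e-05), passed in the same 7 but not among those upstream summits (3.67% against 4.57%). Around optimal summits the CA repeat was lower at the summit than in the flank (1.73% and 3.75%), and the difference of those differences was not tested.

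Other words differed less firmly. The DRE was at 2.40% against 4.19% (odds ratio 0.563, exact test, adjusted p = 4.76e-05) but kept its call in 2 of 7 alternatives. The call was lost among the weak entries above their median signal and in the narrower window of 25 bp each side. It was also lost without each replicate, where only weak entries found in both other replicates were set against all optimal ones. The TATA box (4.63% against 6.41%) kept its call in 6 of 7, the forkhead and E2F words in 5, the GAGA factor word in 4, and the CTCF and GATA factor words in none. Among the summits within 100 bp upstream the DRE, GAGA factor, CTCF and GATA factor words passed and the TATA box, forkhead and E2F words did not. For the M1BP site, at 2.49% and 3.10%, no difference passed the test (95% exact intervals 2.05 to 3.00 and 2.56 to 3.71).

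**Figure D5:**
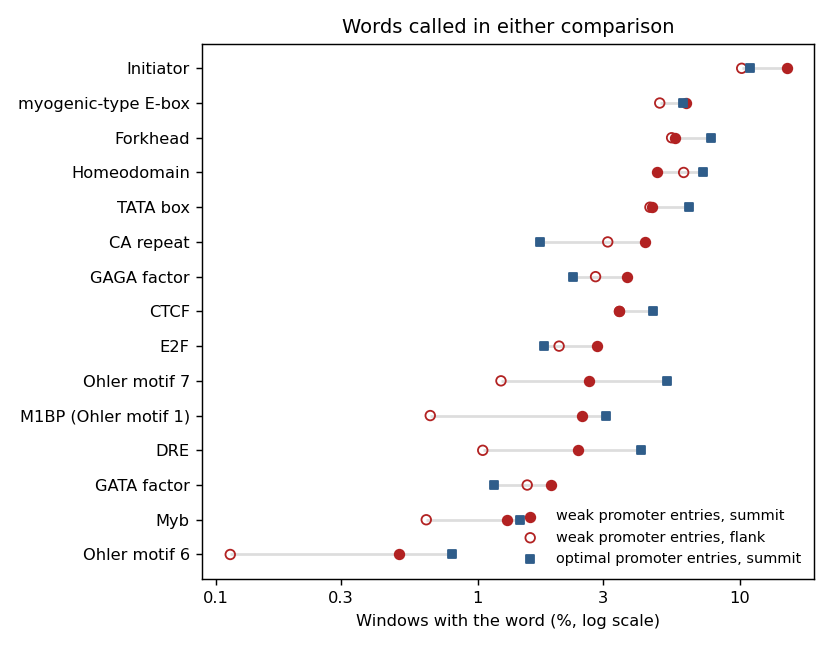
Share of 101 bp windows with each word (horizontal axis, %, log scale) at the summits of weak promoter entries, in their flanks and at the summits of optimal promoter entries, for the words called in either comparison. The M1BP site stands at 2.49% at weak summits, 0.658% in their flanks and 3.10% at optimal summits.

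For scale, the same words were counted in windows of the same width centred on all 19253 distinct protein-coding starts. The DRE was in 4.48% of them, the M1BP site in 4.68%, Ohler motif 7 in 4.63%, the Initiator in 22.5%, the CA repeat in 1.81% and the E2F word in 2.35%. The summit windows sit at varying distances from the start, whereas these are centred on it, so the shares are not like for like. Starts of genes with weak entries only held the Initiator in 27.0%, those of genes with an optimal entry in 19.98% and those with neither in 22.8%. Between weak-only and optimal starts, some words went the other way from the summits. The CA repeat was in 1.74% against 2.36%, the GAGA factor word in 1.91% against 2.27% and the TATA box in 6.67% against 3.63%. The other words called at the summits had the same direction, with Ohler motif 7 in 3.65% against 7.14%. Differences between starts were not tested.

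Base composition at the summit went the other way from that of optimal promoter entries. The AT share of weak summit windows was 56.8% and of their flanks 58.0%, whereas optimal promoter summits had 61.4% and their flanks 56.9%. Over the entries matched in each replicate the weak summits had 57.0% ± 0.473 (SD, n = 3) and the optimal ones 61.3% ± 0.323 (SD, n = 3), and the replicate values did not overlap. Upstream of the start the values were 58.1% and 62.8%, and downstream 54.9% and 57.6%, so the weak entries were lower on both sides. Within 100 bp upstream they were 55.1% and 58.1%. The genome as a whole had 57.8%. The words compared above differ in base composition, and its part in their differences was not tested.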

How the data were processed

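ChIP-seq peak lists of 3 biological replicates (1 group) were analysed on dm6. Per the file listing, the authors called a list of peaks and background per replicate and another on pooled replicates (n = 3), with a control alignment, and derived the optimal list by the irreproducible discovery rate. The deposited signal has no stated scaling, so it was used only to rank entries within a list. The deposited −log10 q-value was used as a description. The sources used here do not name an aligner, peak caller or threshold. Depth is unknown without read counts, and intervals are exact binomial ones at 95% that cover counting error only. Lists on dm3 were not used, and 0 columns were left over.

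Transcript starts came from Ensembl release 115 and sequence from the RefSeq dm6 assembly. A summit was given to coding exon first, then to a UTR, another exon, an intron or intergenic sequence. Both strands of 101 bp windows were searched for words, at the summit and 300 bp to a seeded side. Tests were Fisher's exact and exact McNemar tests with Benjamini-Hochberg adjustment, called at 0.05. The exact tests alone, without that adjustment, were tried on simulated counts. Entries are not replicates. The members, the 38 lists and the 30 words were chosen with earlier results of these data known, and 21 listed symbols had no match. The digestive enzyme list was narrowed after its values were seen, when its name pattern was found to take in lipid-binding and mannosidase genes. Named genes were rgr, the 12 highest weak-only genes found in all replicates, up to 3 of each list, the 5 with the most uneven ranks, the extremes of signal, the genes with most entries and up to 2 entries per called word. Alternatives were other distances, windows, flanks and starts, controls set by the start (added after seeing the data), entries far from optimal summits, entries of higher signal and leaving out each replicate. For words and distance to the start, leaving out a replicate limited the weak entries to those found in both others. The optimal entries were not limited. Tools were scipy 1.17.1 and pandas 2.3.3 under Python 3.11.15, with numpy 2.4.6 and, for plots, matplotlib 3.10.9.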

Additional observations from a re-analysis of the deposited data

How the results depend on the processing

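The number of weak promoter entries and of genes with weak entries only stayed within 1.5 times under other promoter distances and with 1 start a gene (3168 to 6414 entries and 2119 to 2483 genes). The difference in recurrence from weak entries away from starts kept its direction and its call in the alternatives run over all signals (3.41 to 10.8 percentage points). It was 3.41 points at a matching distance of 50 bp, 5.26 at 100 bp and 10.8 at 200 bp. Within quintiles of signal, where it turned its direction in the upper ones, it was compared at 100 bp only. The share found in all replicates was 14.4% at a matching distance of 50 bp and 45.3% at 200 bp, and 35.0% to 46.1% when 1 replicate was left out and both others were required. The difference in summits within 100 bp of a start ran from -1.06 to 0.0319 percentage points without each replicate, turning its sign without replicate 2. These settings limited the weak entries to those found in both remaining replicates. Weak entries matched in all 3 replicates had a median signal of 89.3, against 60.8 for all of them. The part of signal in this change was not tested. Words called higher at the summit than in the flank fell from 10 to 4 with 25 bp each side and to between 4 and 5 without each replicate. Words called lower fell from 1 to 0 with 25 bp each side and away from optimal summits, and ranged from 0 to 1 without each replicate. With the control mirrored across the start, 2 words were called higher and 0 lower, and with the control towards the start 3 higher and 4 lower. The summit minus control difference turned with the mirrored control for the DRE (-0.0936 percentage points) and fell to 0 for the homeodomain word. With the control towards the start it turned for the DRE (-1.60), the M1BP site (-1.0), Ohler motif 6 (-0.200), Ohler motif 7 (-0.200), the Initiator (-5.46), the myogenic-type E-box (-0.401), E2F (-0.150), Myb (-0.200) and the homeodomain word (1.90), and by construction these controls lie nearer the start. Against optimal promoter entries, 5 words called higher became 2 with 25 bp and 3 with 100 bp each side, and 3 to 4 without each replicate, while 6 called lower became 2 to 4 without each replicate and 3 within 100 bp upstream of a start. For words and distance to the start, leaving out a replicate kept only weak entries found in both others, so fewer remained, beside all optimal entries. The AT share was 57.3% with 100 bp each side. For single words, 46 of 77 values kept their call against flanks and 50 of 77 against optimal promoter entries, and none turned its direction in the alternatives other than those controls. No paired analysis was possible because there is 1 group. Depth is unknown, so it sets no limit that can be stated.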
